A study of Mus musculus with 60 samples.

Results

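Prefrontal cortex of female Tbr1+/K228E mice (HT) raised on lithium was set against that of female wild-type (WT) mice raised on vehicle. The groups were taken by the genotype, treatment and sex in the sample titles and hold 5 libraries each, which makes 10 of the 60 in the series. The question was how near lithium brings the heterozygous cortex to the untreated wild-type state. All mice were C57BL/6J and were taken at postnatal day 25, after 3 weeks of drug or vehicle given between days 3 and 24 through the milk of the mother. Beside the 2 groups stand 5 libraries of HT vehicle females (Tbr1+/K228E, vehicle) and 5 of WT lithium females, of the same strain and age. The gene-by-gene fit also held HT and WT females given fluoxetine, 5 libraries each, which add to the spread behind its p-values. Male libraries were kept out of the comparison. Fluoxetine females and males and lithium males were used to choose genes of the genotype. No lithium dose, litter, mother or batch is given in the sources used here. The p-values thus cover just the spread among the libraries in each test, fluoxetine libraries included in the gene-by-gene fit. Some of these libraries may come from 1 litter.

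Tbr1 is a T-box transcription factor of early-born glutamatergic neurons of the cortex, above all those of layer 6 and the subplate, and variants of the gene occur in people with autism. The K228E change lies in the protein's DNA-binding T-box. Lithium is a mood stabiliser that inhibits inositol monophosphatase, which recycles inositol for phosphoinositide signalling, and glycogen synthase kinase 3, which marks beta-catenin for breakdown in the Wnt pathway.

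The values are reads per gene divided by a size factor of the library, called normalised reads here, from libraries of 24693257 to 36156697 reads in the 10 compared. Cortical layer markers were read in all 10 libraries, with a mean of 11.13 ± 0.08 on the log2 scale for 12 upper layer neuron genes in HT lithium libraries and 10.95 ± 0.16 in WT vehicle libraries (SD, n = 5 each). The deposited values sum both Tbr1 alleles and so give no check of genotype. Markers of a neighbouring region differed between the groups. The 7 mitral and tufted cell genes of the olfactory bulb, among them Cdhr1, Tbx21 and Eomes, had a mean log2 value of 8.45, 9.72, 6.73, 5.97 and 5.88 in HT lithium libraries 1 to 5. In WT vehicle libraries 1 to 5 the list was at 10.34, 10.69, 10.89, 9.13 and 9.70. Only HT lithium library 2 lay within the WT vehicle range. HT vehicle libraries spanned 5.13 to 10.95 and WT lithium libraries 6.77 to 10.44. Results are therefore given also from a fit with 2 covariates from this list, the mean over its genes of log2 values and that of linear values, named bulb covariates below.

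No approach of the lithium-treated heterozygotes to the untreated wild type was detectable in the distance of whole transcriptomes. The distance of a library is the root mean square difference in log2(value + 1), over 17335 genes, from the mean of the WT vehicle libraries. It was 0.438, 0.317, 0.573, 0.602 and 0.685 in HT lithium libraries 1 to 5, and 0.472, 0.414, 0.421, 0.616 and 0.406 in HT vehicle libraries 1 to 5. HT lithium libraries thus held both the nearest library (library 2) and the farthest one (library 5) of these 10, and the groups overlapped. Group means were 0.523 ± 0.145 in HT lithium and 0.466 ± 0.088 in HT vehicle libraries, while WT lithium libraries spanned 0.305 to 0.543 and WT vehicle libraries lay 0.377 ± 0.040 from the mean of the other 4 of their group (SD, n = 5 each). HT lithium libraries lay 0.057 farther away than HT vehicle libraries, a difference within the spread (two-sided exact permutation test over all splits of these 10 libraries, p = 0.460, where the smallest p the design allows is 0.00794). The order of the distances within HT lithium libraries ran opposite to their olfactory bulb level. After removal of the bulb covariates, the mean distances were 0.377 ± 0.049 in HT lithium, 0.326 ± 0.031 in HT vehicle, 0.345 ± 0.030 in WT lithium and 0.308 ± 0.014 in WT vehicle libraries (SD, n = 5 each), and HT lithium was 0.052 farther than HT vehicle (exact permutation p = 0.103).

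**Figure D1:**
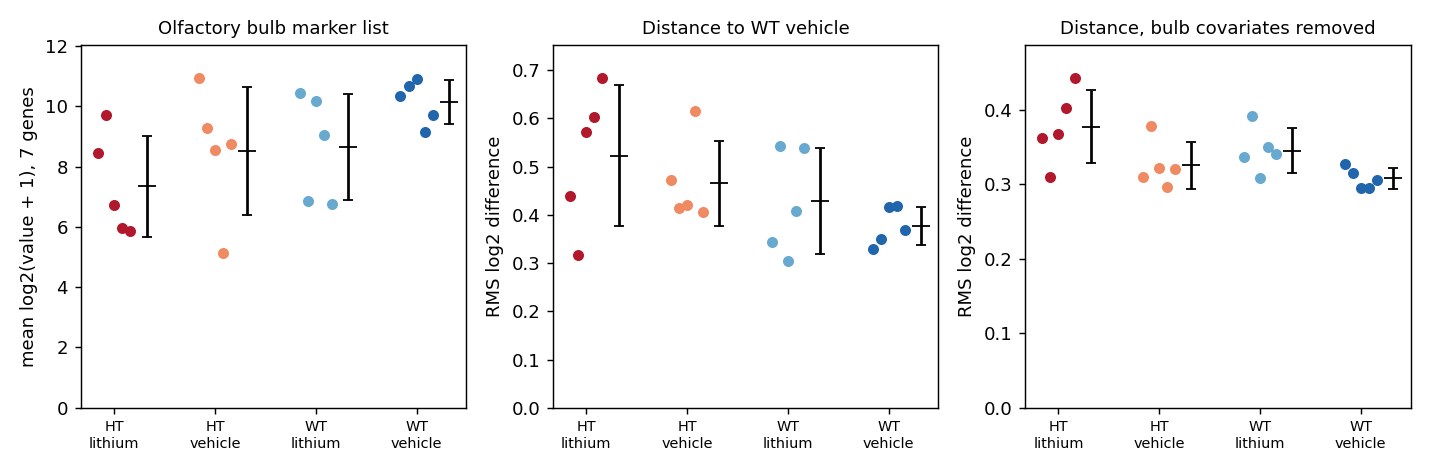
Mean log2 value of 7 olfactory bulb marker genes (left), distance of each library to the WT vehicle mean (middle) and the same distance after removal of the bulb covariates (right), for HT lithium, HT vehicle, WT lithium and WT vehicle females, 5 libraries each. Points are libraries, and the bar beside them is the mean with its SD; HT lithium libraries span 0.317 to 0.685 in the middle panel.

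Gene by gene, HT lithium cortex differed from WT vehicle cortex in 2863 of 17335 genes tested (limma, Benjamini-Hochberg adjusted p below 0.05), which is 16.5% of them. Of these, 1382 (7.97%) were higher and 1481 (8.54%) lower in HT lithium libraries. Most differences were small, with a median size of 0.39 on the log2 scale, and 55 higher and 260 lower genes were past a 2-fold change. The groups of 5 did not overlap at 447 genes that were higher in HT lithium (2.58% of all tested) and at 445 that were lower (2.57%). The same test called 0 genes between HT vehicle and WT vehicle (0% of 17335, with 1092 at an unadjusted p below 0.05, 0 by edgeR and 2 by DESeq2). That 0 did not hold without HT vehicle library 1, where 1752 genes were called, or with library quality weights, where 4709 were. Between HT lithium and HT vehicle it called 1 gene (0.00577%), Castor2. These comparisons share libraries. A larger count against WT vehicle in one than in another is no test of a difference between them.

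The number of genes past the adjusted threshold depended on single libraries and on the spread borrowed from other groups, fluoxetine females among them. Without HT lithium library 3, 4 or 5, the count was 45, 49 or 26, and without WT vehicle library 1, 2 or 3 it was 79, 26 or 40. In those fits 4794 to 5623 genes were still at an unadjusted p below 0.05, against 6722 in the main fit. The count called was 3013 or 5003 without HT lithium library 1 or 2, and 4960 or 3889 without WT vehicle library 4 or 5. The bulb list was lowest in HT lithium libraries 3, 4 and 5 and highest in WT vehicle libraries 1, 2 and 3. With only the 10 compared libraries in the limma fit, 0 genes passed, with 5868 at an unadjusted p below 0.05. On recovered reads of the 30 female libraries, edgeR called 2597 and DESeq2 3721. In the fit with the bulb covariates 1 gene passed (0.00577%), and the median size of the 2863 differences was 0.083, though 2494 of them kept their sign. The part of olfactory bulb tissue in the 2863 calls was not tested. Of the 2863, 14 genes were called in all 10 fits that leave out a library. Each other gene called below lost its call in at least 1 of those fits, and all except Duxbl1 lost it with the bulb covariates.

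**Figure D2:**
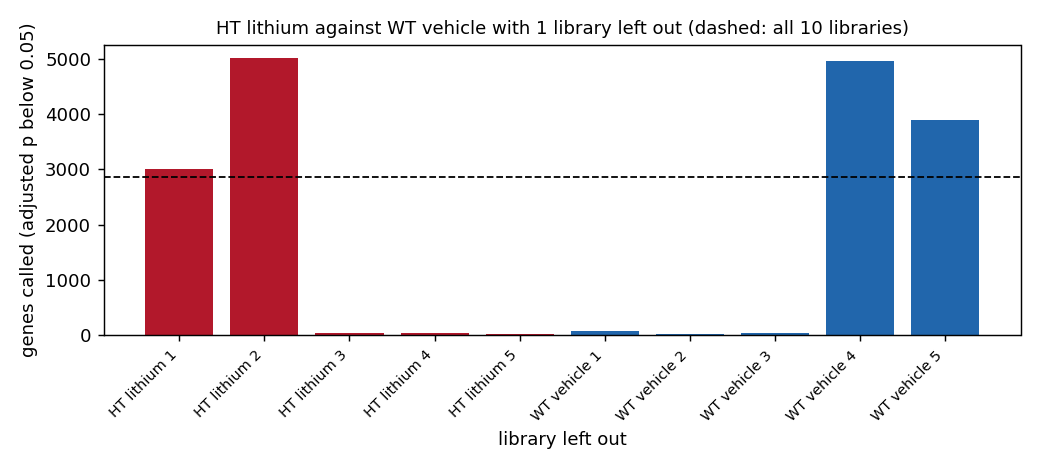
Number of genes called between HT lithium and WT vehicle females (limma, adjusted p below 0.05) when the library on the horizontal axis is left out. Bars are counts for 4 against 5 libraries, and the dashed line is the 2863 genes called with all 10; leaving out any of 6 libraries brought the count to between 26 and 79.

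Tbr1 (ENSMUSG00000035033, chr2:61802930-61814114 on the plus strand of GRCm38) was higher, not lower, in the lithium-treated heterozygotes. It was at 4344, 3403, 5241, 4172 and 4390.4 normalised reads in HT lithium libraries 1 to 5, against 2019.6, 1644, 1197, 3218 and 2894 in WT vehicle libraries 1 to 5. The groups did not overlap, and the difference was 1.05 on the log2 scale (SE 0.28, adjusted p = 0.0311). It was 0.86 to 1.21 with a library left out, with an adjusted p of up to 0.0929. HT vehicle libraries had 1167, 3168, 4304, 4980.3 and 4323, a range that takes in both groups, and stood 0.64 above WT vehicle (adjusted p = 0.656). WT lithium libraries averaged 2970.2 ± 928 (SD, n = 5). Under the bulb covariates the HT lithium difference from WT vehicle was 0.15 (adjusted p = 0.49). In bulk tissue, a change in the number of cells of a type and a change in RNA per cell cannot be told apart.

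**Figure D3:**
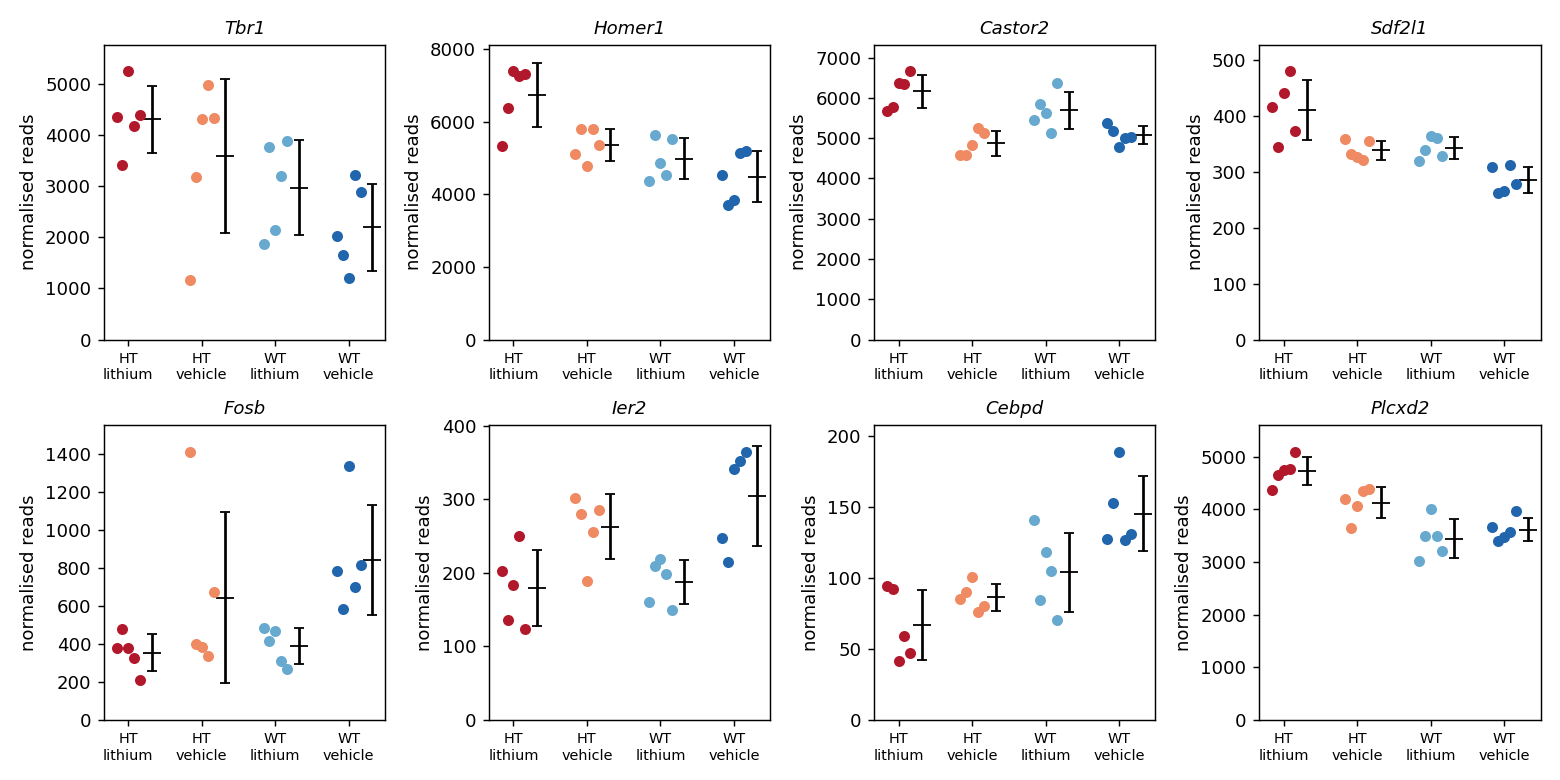
Normalised reads of 8 genes in HT lithium, HT vehicle, WT lithium and WT vehicle females. Points are the 5 libraries of a group, and the bar beside them is the mean with its SD; HT lithium and WT vehicle libraries do not overlap for any of the genes shown except Ier2.

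Of 13 genes linked to Tbr1 as partners, targets or fate factors, 3 were higher and 3 lower in HT lithium, with a list median of -0.15 against 0.0035 over all genes tested. Over all genes, 7.97% were called higher and 8.54% lower, the shares to set beside this and later list counts. Fezf2, which specifies subcerebral projection neurons, was 1.07 higher, and Cd44, an adhesion receptor, 0.51 higher. Reln, the secreted guidance protein of Cajal-Retzius cells and a target of Tbr1, was at 3269, 4546, 2788, 2608 and 2028 in HT lithium and 5922, 6501, 5483, 4133 and 5476 in WT vehicle libraries, and fell by 0.89 on the log2 scale (SE 0.23, adjusted p = 0.0294). HT lithium library 2 alone was above the lowest WT vehicle library. Ntng1, a netrin-family membrane protein of axons, fell by 0.84 and Bcl11a, a transcription factor of deep-layer neurons, by 0.24. The bulb itself holds Reln-producing mitral cells, and with the bulb covariates Reln was at -0.17, Ntng1 at -0.089 and Fezf2 at -0.048, none of them called.

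Deep-layer markers did not move together. Of 13 layer 6 and subplate genes tested, 3 were higher and 3 lower, with a median of 0.20. That median was 0.033 to 0.32 with a library left out and -0.15 with the bulb covariates, where 3 of 13 members were positive. Log2 differences are given in brackets from here on. Besides Tbr1, the higher ones were Sla2, an adaptor of antigen receptor signalling used here as a deep-layer marker (1.26), and Crym, a thyroid hormone binding protein (0.84). Nxph4, a neurexin ligand of subplate cells, was at 106, 123, 79.8, 27.6 and 19.8 in HT lithium and 238, 307, 311, 136 and 155 in WT vehicle libraries. These did not overlap, and the difference of -1.92 (SE 0.47, adjusted p = 0.0287) was -0.68 with the bulb covariates (adjusted p = 0.49). Ccn2, a matricellular protein of subplate cells, was at -0.66 and Syt6, a synaptotagmin, at -1.26, and both were called. In layer 5, Fezf2 and the cofactor Ldb2 (0.84) made up the 2 higher of 9 genes. Among 12 upper layer genes 2 were lower, Cux1 (-0.37), a homeobox factor, and Mdga1 (-1.17), an adhesion protein, while the list median was 0.30 with 10 of 12 members positive. Under the bulb covariates the upper layer median was -0.080 with 1 of 12 positive, and Mdga1 was at 0.0069.

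Of the 10 genes that fell most at a mean of at least 50 over the 10 libraries, 4 belong to the olfactory bulb lists (Cdhr1, Tbx21, Frmd7 and S100a5). Cdhr1, a protocadherin of mitral and tufted cells, was at 1429, 4197, 478, 254 and 199 in HT lithium libraries and 5892, 8174, 8863, 2646 and 4439 in WT vehicle libraries (-3.01, SE 0.98, adjusted p = 0.0408). HT lithium library 2 again lay inside the WT vehicle range, and the other 4 below it. Chrnb4 (-3.35) and Chrna10 (-3.03) code for nicotinic acetylcholine receptor subunits, Tbx21 (-2.98) is a T-box factor of mitral cells, and Omp (-2.60) marks olfactory sensory axons. Frmd7 (-2.98), S100a5 (-2.71), Ppm1j (-2.69), Fam19a3 (-2.68) and Nppa (-2.61) completed them. Under the bulb covariates these 10 genes were at -0.47 to 0.12. Cdhr1 and Tbx21 belong to the list that makes the covariates, so their own move toward 0 was fixed in advance. Of the 7 mitral and tufted genes 4 were called lower (median -2.84), of 13 granule and periglomerular cell genes 7 (median -1.55), and of 12 neuroblast genes 11 (median -1.30), among them Dlx1 (-1.70), Dlx2 (-1.69) and Sp9 (-1.95), factors of interneuron precursors. Leaving out a library put these counts at 0 to 7, 0 to 10 and 0 to 12. These lists had medians of -1.54, -0.99 and -0.81 in HT vehicle against the same WT vehicle libraries, with 0 members called.

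Among called genes with a mean of at least 50 over the 10 libraries, Bc1 and Ttr rose most. Bc1, a short neuronal RNA that represses translation in dendrites, was at 425, 293, 2741, 629 and 868 in HT lithium and 166, 55.6, 102, 306 and 166 in WT vehicle libraries (2.37, SE 0.50, adjusted p = 0.0199). HT lithium library 3 stood far above the other 4, and library 2 was within the WT vehicle range. Ttr, the transthyretin of choroid plexus, was at 54.7, 306, 66.9, 352 and 187 against 45.7, 117, 29.7, 19.3 and 25.1, also overlapping (1.95), and was the only 1 called of 7 choroid plexus genes, whose median was -0.30. Mc4r, the melanocortin receptor (1.54), Npy2r, a neuropeptide Y receptor (1.27), and the neurexin ligands Nxph3 (1.41) and Nxph2 (1.15) were also among them, with Catsperz (1.08) and the long noncoding RNA Mirt1 (1.08).

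Markers of striatal medium spiny neurons were high in HT lithium library 1. The 12 striatal genes had a mean log2 value of 10.9 in that library, against 8.78 to 9.38 in the other HT lithium libraries and 8.79 to 8.98 in WT vehicle libraries. Of these 12 genes 2 were called higher, among them the neuropeptide gene Tac1 (0.97), and 0 lower. Drd1, the dopamine D1 receptor, was at 883, 101, 328, 185 and 192 in HT lithium and 97.4, 58.7, 60.3, 202 and 164 in WT vehicle libraries and was not called (adjusted p = 0.0995).

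**Figure D4:**
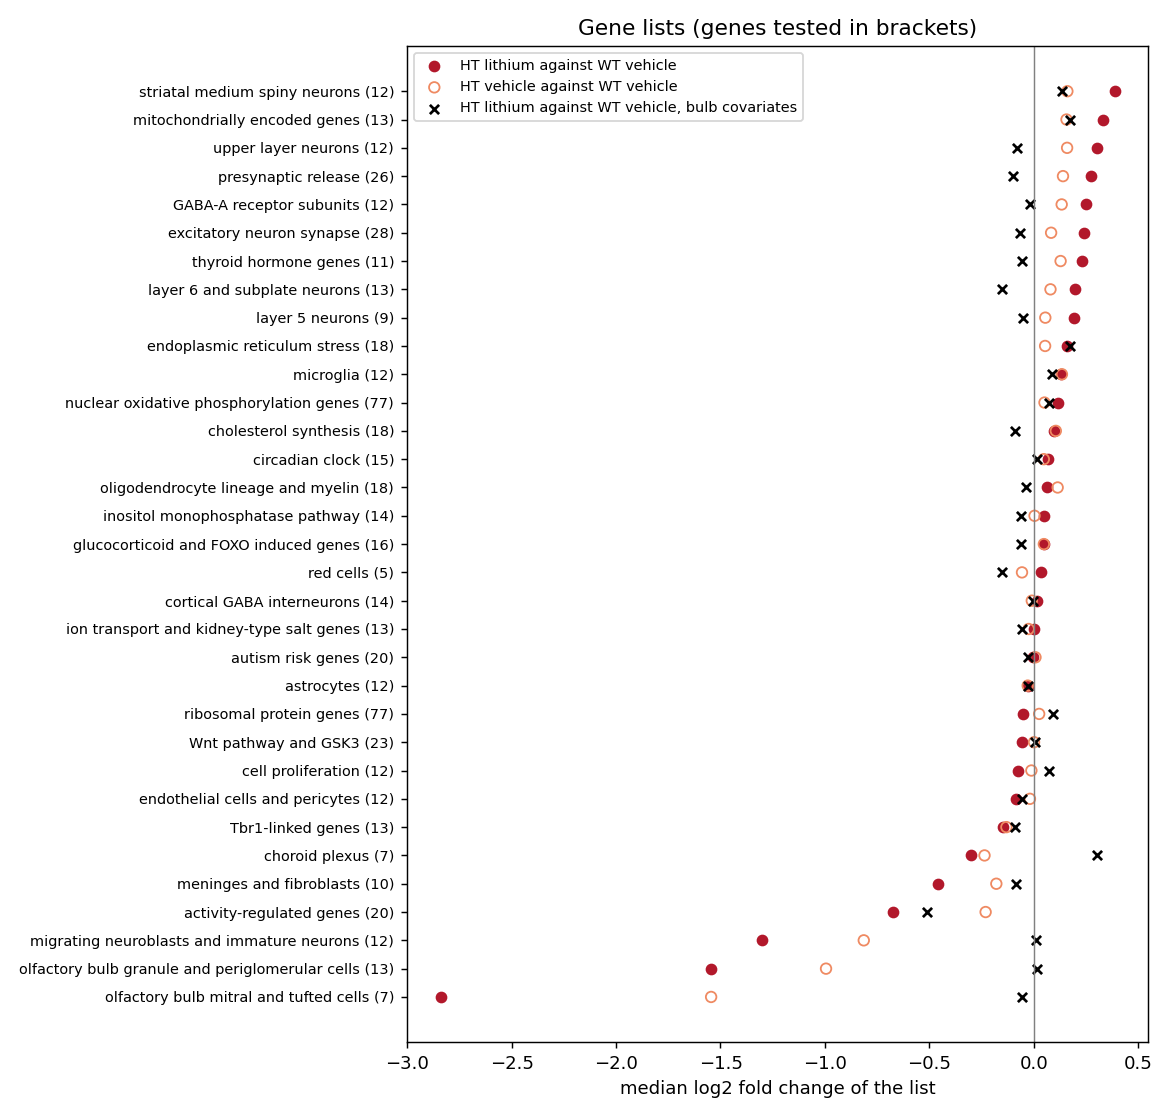
Median log2 fold change of each gene list (genes tested in brackets) in HT lithium against WT vehicle (filled), HT vehicle against WT vehicle (open) and HT lithium against WT vehicle with the bulb covariates (crosses). The olfactory bulb and neuroblast lists, at -2.84 to -1.30, lie near 0 with the covariates. The mitral and tufted genes make those covariates, so the move of their own list to near 0 was fixed in advance. Activity-regulated genes are at -0.67 and -0.51 and endoplasmic reticulum genes at 0.16 and 0.17, without and with the covariates.

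Genes induced by neuronal activity were the lowest list outside the bulb and its neuroblasts. Of 20 genes, 11 were lower and 2 higher in HT lithium than in WT vehicle, and the list median was -0.67. Over all genes, 8.54% were called lower and 7.97% higher. Fosb, a subunit of the AP-1 factor, was at 375, 479, 380.0, 326 and 209 in HT lithium libraries, against 783, 584, 1337, 699.7 and 813 in WT vehicle libraries. All 5 HT lithium libraries were below all 5 of WT vehicle, and Fosb fell by 1.24 (SE 0.30, adjusted p = 0.0272). Btg2, an antiproliferative gene (-1.06), Ier2, an immediate early transcription regulator (-0.78), and Fos (-0.97) fell too, with Junb (-0.61), Npas4 (-0.97), Nr4a1 (-0.73), Dusp1 (-0.56), Jun (-0.29), Fosl2 (-1.13) and Atf3 (-2.33).

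Not every activity gene moved this way. Arc, a regulator of AMPA receptor uptake, was at 3853, 2379.9, 3646, 5743 and 1292 in HT lithium and 4647, 3144, 5392, 7142 and 7236 in WT vehicle libraries and was not called (-0.81, adjusted p = 0.115). Homer1, a scaffold of postsynaptic metabotropic receptors, and Bdnf, the neurotrophin (0.71), were the 2 that rose. Homer1 (chr13:93299635-93405129) was at 5329, 6379.7, 7389, 7254 and 7329 in HT lithium libraries and 4521, 3718, 3839, 5151 and 5198 in WT vehicle libraries. The groups did not overlap (0.59, SE 0.11, adjusted p = 0.0111), and the call held in all 10 fits that leave out a library (0.53 to 0.67). Homer1 averaged 5369 ± 444 in HT vehicle and 4984 ± 573 in WT lithium libraries (SD, n = 5 each). HT lithium was 0.32 above HT vehicle, which was not called (adjusted p = 0.592).

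The number of activity genes called lower went between 0 and 9 when a library was left out. Under the bulb covariates the activity list median was -0.51, with 18 of 20 members negative and 0 called. In HT vehicle against WT vehicle the median was -0.23. Fosb in HT vehicle libraries ran from 337 to 1411, across both other groups, and WT lithium libraries averaged 388 ± 95.8 (SD, n = 5).

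Chaperones of the endoplasmic reticulum were slightly higher. Of 18 genes of protein folding and the unfolded protein response, 9 rose and 0 fell, 17 of 18 were positive, and the median was 0.16 (0.17 with the bulb covariates, with 18 of 18 positive and 0 called). Sdf2l1, which holds the chaperone Hspa5 in its client cycle, was at 417, 345, 442, 480.1 and 373 in HT lithium libraries and 309, 262, 267, 312 and 279 in WT vehicle libraries, with no overlap (0.52, SE 0.092, adjusted p = 0.0111). Dnajc3, an Hspa5 cofactor, was at 1619, 1715, 1716, 1681 and 1684 against 1507, 1489, 1451, 1541 and 1537, again with no overlap (0.16, SE 0.036, adjusted p = 0.0231). The disulfide isomerases Pdia3 (0.21) and Pdia6 (0.27), Hspa5 itself (0.23), Hsp90b1, the reticulum's HSP90 (0.17), the secreted factor Manf (0.27), Dnajb9 (0.16) and the transcription factor Xbp1 (0.15) rose as well. Ddit3, the proapoptotic stress factor, was at -0.033 and Atf4 at 0.071, neither called. The count of 9, where 7.97% of all genes were called higher, went between 1 and 11 with a library left out. In HT vehicle against WT vehicle the list median was 0.05.

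The endoplasmic reticulum stress element, a site through which such chaperones can be induced, was searched for in RefSeq promoters of GRCm38.p6, which end shortly after the start of the gene. The letters searched were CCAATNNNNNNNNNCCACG on both strands, and 39 of 32851 promoters (0.119%) held them. They were found in 7 of the 17 list members with a promoter in the table (Calr, Canx, Creld2, Dnajc3, Hsp90b1, Hspa5 and Pdia6). The first count is of promoters and the second of genes, so the units are unlike. Calr, Canx and Creld2 were not called (limma adjusted p = 0.0593, 0.0989 and 0.908). The promoters of 4 called members are shown 5′ to 3′ because they carry the element, with its fixed letters in capitals. They are Hspa5 (chr2:34771840-34772139, plus strand), Hsp90b1 (chr10:86705395-86705694, minus strand, with a copy on each strand), Pdia6 (chr12:17266339-17266638, plus strand) and Dnajc3 (chr14:118937682-118937981, plus strand).
Hspa5: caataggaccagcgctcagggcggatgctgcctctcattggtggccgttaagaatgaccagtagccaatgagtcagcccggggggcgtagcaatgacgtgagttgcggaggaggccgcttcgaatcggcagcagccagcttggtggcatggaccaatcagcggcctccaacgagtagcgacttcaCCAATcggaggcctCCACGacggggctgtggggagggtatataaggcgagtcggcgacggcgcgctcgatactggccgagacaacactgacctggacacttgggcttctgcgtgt
Hsp90b1: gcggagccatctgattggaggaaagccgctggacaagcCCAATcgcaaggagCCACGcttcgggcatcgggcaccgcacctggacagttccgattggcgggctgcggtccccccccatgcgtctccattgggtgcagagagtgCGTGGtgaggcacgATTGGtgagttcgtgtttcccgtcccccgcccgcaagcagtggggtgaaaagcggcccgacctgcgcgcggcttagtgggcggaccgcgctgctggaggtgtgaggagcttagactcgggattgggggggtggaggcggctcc
Pdia6: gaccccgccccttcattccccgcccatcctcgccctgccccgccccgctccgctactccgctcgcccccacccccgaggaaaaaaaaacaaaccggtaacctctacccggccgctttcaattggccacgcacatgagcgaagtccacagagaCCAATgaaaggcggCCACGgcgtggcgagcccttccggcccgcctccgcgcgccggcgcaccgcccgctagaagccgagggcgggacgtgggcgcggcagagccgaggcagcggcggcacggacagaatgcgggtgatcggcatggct
Dnajc3: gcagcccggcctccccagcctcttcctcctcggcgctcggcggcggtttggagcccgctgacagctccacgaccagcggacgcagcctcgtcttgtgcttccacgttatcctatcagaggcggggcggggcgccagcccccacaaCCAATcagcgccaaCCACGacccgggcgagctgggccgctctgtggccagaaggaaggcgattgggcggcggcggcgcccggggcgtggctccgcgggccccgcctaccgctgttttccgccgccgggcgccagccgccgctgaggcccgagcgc
A match is a description of these letters, and Sdf2l1, the member with the largest called rise, had none in its window. Pdia3, Manf, Dnajb9 and Xbp1, also called, were not among the members with a match. The cyclic AMP response element TGACGTCA was in 588 of the promoters (1.79%) and in 2 of the 16 activity-regulated genes with a promoter, Btg2 and Dusp1.

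The synaptic lists held more genes called higher than lower in HT lithium, where 7.97% of all genes were called higher and 8.54% lower. Of 28 genes of excitatory synapses, 6 were higher and 3 lower (median 0.24), and of 26 genes of presynaptic release, 4 were higher and 1 lower (median 0.28). The 5 of 26 presynaptic genes called are a share near the 16.5% called over all genes. Besides Homer1, the excitatory genes that rose included the scaffolds Shank3 (0.49) and Shank2 (0.46), the receptor Grm5 (0.41) and the AMPA receptor partner Cacng2 (0.32). Gria1, an AMPA receptor subunit, was at 10426, 11555, 10595, 10756 and 9029 in HT lithium and 12832, 12981, 12813, 11854 and 11736 in WT vehicle libraries, which did not overlap, and fell by 0.25 (SE 0.07, adjusted p = 0.0321). The metabotropic receptor Grm2 (-0.42) was among those that fell. On the presynaptic side, Syn2, a synapsin of the vesicle pool (0.34), Syt2, a calcium sensor of release (1.06), the membrane fusion protein Snap25 (0.37) and the vesicle protein Syp (0.35) were higher, and Nrxn3, a neurexin, was lower (-0.25).

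These medians turned with the bulb covariates, to -0.068 for excitatory and -0.10 for presynaptic genes, with 0 members called. Leaving out a library left 1 to 13 excitatory and 0 to 13 presynaptic genes higher. In HT vehicle against WT vehicle the medians were 0.082 and 0.14. Of 12 GABA-A receptor subunits, 3 were higher, among them Gabra4 (0.48) and Gabra3 (0.27), with a list median of 0.25 that was -0.017 with the covariates.

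Interneuron markers did not move together. Pvalb, the calcium buffer of fast-spiking interneurons, was at 610.2, 417, 648, 619 and 769 in HT lithium libraries and 269, 173, 179, 426 and 379.7 in WT vehicle libraries (1.17, SE 0.28, adjusted p = 0.0272). HT lithium library 2 was below WT vehicle library 4 and the other 4 were above all WT vehicle libraries. Nxph1, a neurexin ligand of interneurons, was at 1028, 1061, 982, 1071 and 1051 against 1311, 1293, 1526, 1124 and 1162, with no overlap (-0.30, adjusted p = 0.0311). In all, 2 of 14 interneuron genes were higher, Pvalb and Tac1, and 4 lower. Tac1 is also on the striatal list, which was high in HT lithium library 1. The GABA synthesis enzyme Gad2 (-0.38), the vesicular GABA transporter Slc32a1 (-0.66) and Reln were lower too, and were at 0.021, -0.013 and -0.17 with the bulb covariates.

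In the pathways of the enzymes that lithium inhibits, 1 of 14 inositol genes and 4 of 23 Wnt genes were called, where 16.5% of all genes were. Of the 14 genes of inositol recycling, 0 rose and 1 fell, Itpkb, an inositol trisphosphate kinase (-0.29). Impa1, the inositol monophosphatase that lithium inhibits, was at 1704, 1759.9, 1905, 1719.8 and 1843 in HT lithium and 1678, 1648, 1801, 1734 and 1635 in WT vehicle libraries, overlapping (0.072, SE 0.051, adjusted p = 0.299). Gsk3b averaged 6173 ± 409 in HT lithium and 5524 ± 592 in WT vehicle libraries (SD, n = 5 each; 0.16, adjusted p = 0.0856), and was not called either. Of the 23 Wnt pathway genes, 0 rose and 4 fell. Nkd1, a feedback inhibitor of Wnt signalling, was at 566, 605, 594, 662 and 538 in HT lithium and 757, 776, 731, 683 and 719 in WT vehicle libraries, with no overlap (-0.31, SE 0.081, adjusted p = 0.0307, and -0.27 with the bulb covariates). The R-spondin receptors Lgr5 (-2.15) and Lgr6 (-1.72) and the ligand Wnt7a (-0.95) were the others, at -0.12, 0.094 and 0.092 with the covariates.

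HT lithium and WT vehicle libraries did not overlap at 4 of 15 clock genes, all higher in HT lithium. Among 16 glucocorticoid and FOXO genes they did not overlap at 1 higher and 3 lower. Over all genes tested, this held for 2.58% higher and 2.57% lower. Per2, a repressor of the circadian clock, was at 1645, 1603, 1850.1, 2055 and 1446 in HT lithium libraries and 1394, 1181, 896, 1178 and 1276 in WT vehicle libraries (0.54, SE 0.12, adjusted p = 0.0218, and 0.42 with the bulb covariates). The clock output factors Hlf (0.42) and Tef (0.25) and the Clock partner Npas2 (0.55) made up the 4 of 15 clock genes that rose, and 0 fell. They were at 0.11, 0.087 and -0.034 with the bulb covariates, where the clock list median was 0.016, against 0.068 without them. With a library left out 0 to 6 clock genes were higher. The time of day of dissection is not given in the sources used here. Zbtb16, a glucocorticoid-induced zinc finger factor, was at 1062, 1125, 1438, 1369 and 1425 in HT lithium libraries and 912, 842, 467, 765 and 823 in WT vehicle libraries, with no overlap (0.78, SE 0.15, adjusted p = 0.017).

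Cebpd, a transcription factor induced by stress and cytokines, went the other way. It was at 94.1, 92.2, 41.2, 58.8 and 47.2 in HT lithium and 127, 152, 189, 127 and 131 in WT vehicle libraries, with no overlap (-1.17, SE 0.21, adjusted p = 0.0111). The stress-induced mTORC1 inhibitor Ddit4 (-0.47) and the FOXO target Depp1 (-0.74) fell too, so of 16 glucocorticoid and FOXO genes 1 rose and 3 fell. Cebpd averaged 86.3 ± 9.45 in HT vehicle libraries, all of them below the lowest WT vehicle library, and 104 ± 27.7 in WT lithium libraries (SD, n = 5 each). Dio2, which activates thyroid hormone, rose by 0.45 and the receptor gene Thra by 0.23, while Flywch2, of the same list of 11, fell by 0.34. Of 18 cholesterol synthesis genes Msmo1 alone rose (0.40). Of 13 ion transport genes 0 rose and 2 fell, Aqp4 and the bicarbonate transporter Slc4a4 (-0.49).

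Mitochondrial transcripts were higher. Of 13 mitochondrially encoded genes 7 rose and 0 fell (median 0.33, and 0.17 with the bulb covariates). mt-Atp8, an ATP synthase subunit whose gene overlaps mt-Atp6, was at 15322, 12993, 16527, 14817 and 15234 in HT lithium libraries and 11502, 10838, 10260.5, 12178 and 10958 in WT vehicle libraries, with no overlap between groups (0.42, SE 0.072, adjusted p = 0.0111). HT lithium library 5 held the highest mt-Nd2, at 123623 against 80814 to 87636 in the other 4 and 66932 to 74865 in WT vehicle libraries, and under quantile normalization mt-Nd2 was at -0.013. Of 77 nuclear genes of oxidative phosphorylation 16 rose and 0 fell (median 0.11), led by Ndufc1 (0.42) and Atp5mpl (0.43). Of 77 ribosomal protein genes 0 rose and 2 fell, Rpl14 (-0.21) and Rpl13 (-0.28), whose reads can be shared with pseudogenes. Leaving out a library gave 1 to 8 mitochondrially encoded and 0 to 23 nuclear genes higher. In HT vehicle against WT vehicle the medians of these 2 lists were 0.16 and 0.051. With the bulb covariates the nuclear median was 0.074. The ribosomal median was -0.050 with 27 of 77 members positive, and 0.089 with 67 of 77 positive under the covariates.

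The microglial genes Tyrobp (287, 274, 256, 294 and 299 in HT lithium and 225, 199, 259, 214 and 231 in WT vehicle libraries, 0.32) and Tmem119 (0.28) were the 2 of 12 that rose. Over all genes, 7.97% were called higher. Tyrobp overlapped only through WT vehicle library 3. Of 12 astrocyte genes 3 fell, the lipid-binding protein Fabp7 (-1.95), Gfap (-0.53) and the water channel Aqp4 (-0.36), which were at -0.12, -0.025 and -0.032 with the bulb covariates. Of 12 endothelial and pericyte genes, Ly6c1 rose (0.22) and Pdgfrb (-0.26) and Vtn (-0.43) fell. The collagens Col1a1 (-0.61) and Col3a1 (-0.61) were the 2 of 10 meningeal genes called, both lower. By limma, 0 of 18 oligodendrocyte genes were called (2 at an unadjusted p below 0.05), as were 0 of 12 proliferation and 0 of 5 red cell genes (0 unadjusted in both). Of all 17335 genes, 6722 were at an unadjusted p below 0.05. Of 20 autism risk genes 3 rose, among them Tbr1 and Shank3, and 1 fell, Bcl11a, a share near the 16.5% called over all genes. The list median was -0.0059, and 0 to 6 members were higher with a library left out.

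The 14 genes called in all 10 fits that leave out a library were picked after their values were seen. Besides Homer1, Sdf2l1, Cebpd and mt-Atp8, those higher in HT lithium were Lrfn2, a synaptic adhesion protein (0.72), Wdr12, a ribosome assembly factor (0.42), Plcxd2 (0.39), cytochrome c (Cycs, 0.38), Spred1, a Ras pathway inhibitor (0.36), Zfp322a (0.27) and Lin7a, a scaffold of synaptic membranes (0.24). Those lower were Ly6g6e (-2.15), Ighg2c, an immunoglobulin constant region (-0.80), and Gtf2ird2, a relative of the general factor TFII-I (-0.33). Ly6g6e was at 91.7, 92.2, 60.9, 34.8 and 16.5 in HT lithium libraries and 267, 217, 325, 164 and 179 in WT vehicle libraries, with no overlap. Gtf2ird2 (chr5:134184019-134224355, plus strand) was at 386, 402, 384, 398 and 380.1 against 531, 481, 506, 454 and 488, where all 5 HT lithium libraries lie within a narrow range below the lowest WT vehicle library. Under the bulb covariates limma called 0 of the 14, at 0.38 for Homer1, 0.48 for Sdf2l1, -0.78 for Cebpd and -1.21 for Ly6g6e.

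With the covariates the 1 gene that passed was Duxbl1, a double homeobox gene of a multicopy family whose reads can be shared between copies. It was at 26.5, 27.1, 30.9, 10.8 and 25.3 in HT lithium and 10.1, 3.17, 16.1, 0 and 0 in WT vehicle libraries, and at 5.69 ± 6.52 in HT vehicle libraries (SD, n = 5). HT lithium library 4 lay within the WT vehicle range. The difference was 2.65 without the covariates (adjusted p = 0.042) and 4.71 with them (SE 0.75, adjusted p = 0.0174), at counts so low that 2 WT vehicle libraries were at 0.

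Lithium-treated heterozygotes differed from untreated ones in Castor2, which encodes a protein of the nutrient-sensing mTORC1 pathway (chr5:134099711-134144343, plus strand). It was at 5688, 5773, 6359.9, 6334 and 6659 in HT lithium libraries and 4572, 4573, 4837, 5253 and 5129.7 in HT vehicle libraries, with no overlap (0.34, SE 0.055, adjusted p = 0.0239). WT vehicle libraries, at 5382, 5174, 4793, 5015 and 5039, lay below the HT lithium range as well (0.28, adjusted p = 0.017), and WT lithium libraries averaged 5691 ± 467 (SD, n = 5). For this gene HT lithium was thus farther from WT vehicle than HT vehicle was (-0.062, not called). The call against HT vehicle was lost without HT lithium library 3, 4 or 5 or HT vehicle library 1, 2 or 3, with the replicate block, with library quality weights and with only the compared groups. It held with the bulb covariates (0.29, SE 0.041, adjusted p = 0.00185). The other genes with the smallest p were Dnajc3 (0.16), Stk4, a Hippo pathway kinase (0.23), Zfp322a (0.22) and Txndc16 (0.17), which were not called (adjusted p = 0.482 for each).

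Between untreated heterozygotes and wild type, the genes with the smallest p were Deptor, an mTOR inhibitor, Tppp3, a tubulin-binding protein, the cation channel Trpc7, Timm8a1, a mitochondrial import factor, and Tpbgl, and none was called (adjusted p = 0.656 for each). This comparison shares its WT vehicle libraries with that of HT lithium, so the values are set side by side without a test. Deptor was at -0.33 in HT lithium and -0.40 in HT vehicle against WT vehicle, and Trpc7 at -0.67 and -0.53. Tpbgl was at -0.95 and -0.83, Tppp3 at 0.33 and 0.32, and Timm8a1 at 0.43 and 0.33. The direct differences of HT lithium from HT vehicle for the 5 genes were -0.13 to 0.10, none called (adjusted p = 0.64 to 0.97). HT vehicle library 1, without which 1752 genes were called in this comparison, had the highest bulb level of the 20 libraries.

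Genes of the genotype were also chosen in libraries outside this comparison, as those called for HT against WT averaged over fluoxetine females, fluoxetine males and lithium males (30 libraries). Without covariates there were 9. Of the 5 higher in HT there, 4 were positive in HT lithium against WT vehicle females, and of the 4 lower, 2 were negative. Plcxd2 was at 4362, 4643, 4747, 4774 and 5096 in HT lithium libraries and 3657, 3395, 3481, 3564 and 3969 in WT vehicle libraries, with no overlap (0.39, SE 0.068, adjusted p = 0.0111), and averaged 4126 ± 298 in HT vehicle and 3438 ± 373 in WT lithium libraries (SD, n = 5 each). Necab1, a neuronal calcium-binding protein, was the other of the 9 that was called (0.48, adjusted p = 0.0167). Col5a1, a collagen chain, was at -0.25 and Whrn, a scaffold, at 0.073. Tshz2, a zinc finger factor higher in HT in the other libraries, was at -0.20, and 5330416C01Rik, lower there, at 0.70, neither called.

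Where both fits held the bulb covariates, 47 genes were chosen in the other libraries, 26 higher and 21 lower in HT. In HT lithium against WT vehicle females, 24 of the 26 were positive (median 0.10) and 20 of the 21 negative (median -0.20), where 49.1% of all 17335 genes were positive and 50.9% negative. In HT vehicle against the same WT vehicle libraries, 20 of 26 were positive (median 0.049) and 20 of 21 negative (median -0.17), where 44.9% of all genes were positive and 55.1% negative. Limma called 0 of the 47 in each of these comparisons, with 17 at an unadjusted p below 0.05 for HT lithium and 11 for HT vehicle against WT vehicle. Of all 17335 genes, 1759 and 887 were at such a p in the same fits. Between HT lithium and HT vehicle limma called 0 of the 47 as well (7 unadjusted, and 1187 of all 17335 genes). There 19 of 26 were positive (median 0.039) and 15 of 21 negative (median -0.048), where 52.7% of all genes were positive and 47.3% negative. Tbr1, 0.38 higher in HT in the other libraries, had the smallest p there. It was at 0.15 in HT lithium and 0.15 in HT vehicle against WT vehicle in the female fit, Tshz2 at 0.14 and 0.12, and 5330416C01Rik at -0.80 and -1.22. Arhgap25, a GTPase-activating protein, was at -0.58 and -0.50, and Plcxd2 at 0.34 and 0.16.

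**Figure D5:**
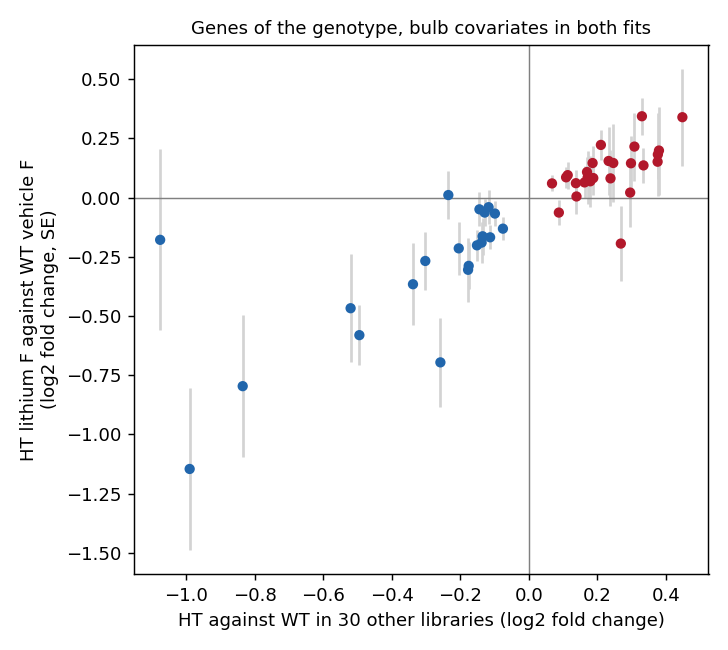
The 47 genes called for HT against WT in 30 other libraries (horizontal axis, log2 fold change) against their log2 fold change in HT lithium against WT vehicle females (vertical axis, with SE), both with the bulb covariates. Genes higher in HT in the other libraries are red and those lower are blue; 24 of 26 red points lie above 0 and 20 of 21 blue points below it.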

How the data were processed

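Prefrontal cortex mRNA was sequenced from a stranded library kit, as the labels' protocols say. The authors deposited 1 signal per gene and library, which is a read number divided by a size factor of that library. Salmon 0.11.2, R 3.6.0, DESeq2 1.19.11 and GRCm38 come from the submitters' processing notes. Annotation and filters are not stated there. All values (100%) were whole multiples of 1 read at a tolerance of 1e-06, which gave the reads per library (23930164 to 36515331 over all 60). Of 18088 identifiers, 18077 had a symbol. Coordinates are from GENCODE M21 on GRCm38.

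Genes at 10 or more in at least 5 of the 30 female libraries were kept. R 4.3.3 and limma 3.58.1 were used to fit log2(value + 1) with 1 mean for each of 6 groups and a trend of the variance, and p-values were adjusted by Benjamini-Hochberg over 17335 genes. Fold changes on this scale understate those of low genes. limma replaces a count model as the values are normalised. edgeR 4.0.16 and DESeq2 1.42.0 were run on the recovered reads. The tests were tested on simulated data. Other alternatives were pseudocounts, filters, normalization, a replicate block, covariates, quality weights, other sets of libraries and leaving out each library. Those on list counts and on calls in every fit were added after seeing the data.

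The members and lists were chosen with earlier results of these data known. Named genes are Tbr1, the 10 rising and 10 falling most among called genes with a mean of at least 50 and no predicted-gene symbol, up to 4 members of each list with the smallest p, and the 5 with the smallest p in each other comparison. No gene of that mean met a further criterion, a call that holds under the bulb covariates. Other genes, including further list members, Arc, Impa1, Gsk3b, Duxbl1 and those of the other libraries, were named after their values were seen. Some genes that the rule names are not reported here. No 2 libraries of a group were taken as 1 deposited in duplicate (chi-square per degree of freedom of at least 7.70).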

Additional observations from a re-analysis of the deposited data

Results flagged for a closer look

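In 11 of 304 groups of 5 libraries checked for the genes named, 1 library stood apart from the other 4, with a gap of more than 0.71 of the group's range. Chance gives about 1 in 20 groups. Among HT lithium libraries, library 5 was low in Pdgfrb (654) and Fosl2 (624.997) and high in mt-Nd2 (123623), library 2 was high in Aqp4 (4188) and low in Shank3 (7878), library 1 was low in Zfp322a (1041) and library 4 was low in Duxbl1 (10.8). Among WT vehicle libraries, library 2 was high in Col1a1 (1215) and low in Cycs (1596) and Nr4a1 (1998), and library 3 was low in Zbtb16 (467).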

How the results depend on the processing

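Between HT lithium and WT vehicle, 2863 genes were called, and between 2597 and 4081 under other pseudocounts, filters, quantile normalization, a replicate block, all 60 libraries, edgeR and DESeq2, with 2148 without the trend. The count was 0 with only the compared groups (5868 at an unadjusted p below 0.05), 6345 with quality weights, 1 with the bulb covariates, 4813 with striatum and choroid plexus covariates and 26 to 5003 with a library left out. Between HT vehicle and WT vehicle it was 0, with 4709 under quality weights, 2 by DESeq2 and 0 to 1752 with a library left out. Between HT lithium and HT vehicle it was 1, with 0 under the replicate block (1641 unadjusted), only the compared groups (510) or quality weights (1247), 3 with all 60 libraries, 6 with striatum and choroid plexus covariates, 2 by DESeq2 and 0 to 1 with a library left out. The median of the genotype genes lower in other libraries was 0.12 over 4 genes. It was -0.14 over the 2 chosen at a mean of at least 100 and -0.20 over the 21 chosen with the bulb covariates, so the genes differ along with the setting. HT lithium minus HT vehicle in distance kept its sign under all alternatives, with differences of 0.017 to 0.109. The exact permutation p stayed above 0.05 in all of them.

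Samples were not paired by replicate number in the main fit, and the values below cannot show whether a partial pairing exists. Same-numbered libraries correlated around their group means at -0.21 to 0.20 (HT lithium and WT vehicle), -0.19 to 0.48 (HT vehicle and WT vehicle) and -0.088 to 0.25 (HT lithium and HT vehicle), not every sample correlated best with its own number, and the block gave 3908, 0 and 0 calls in the 3 comparisons.

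With the bulb covariates the sign turned for Nxph3 (-0.056), Frmd7 (0.013), Ppm1j (0.037), Omp (0.12), Ppp1r1b (-0.0088), Drd1 (-0.13), Ldb2 (-0.054), Fezf2 (-0.048), Mdga1 (0.0069), Calb1 (-0.0081), Syt2 (-0.031), Syp (-0.029), Lgr6 (0.094), Wnt7a (0.092), Npas2 (-0.034), Tshz2 (0.14), 5330416C01Rik (-0.80), Cd7 (-0.18), Arhgap25 (-0.58), Gad2 (0.021), Snap25 (-0.023) and Ddit3 (0.17). Under quantile normalization it turned for mt-Nd2 (-0.013) and Ddit3 (0.014), and with quality weights for Adam33 (-0.069). With a library left out, Adam33 went between -0.054 and 0.17 and Ddit3 between -0.098 and 0.033. The cause of these turns was not tested. With 5 libraries a group, differences within the spread were not detectable, and genes near 0 reads carry counting error beyond the fitted spread.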
